A study of Mus musculus with 12 samples.

Results

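The genes described here are the chemokines and chemokine receptors of the count table, chosen by symbol: those starting with Ccl, Cxcl, Ccr, Cxcr or Ackr and a digit, together with Xcl1, Xcr1, Cx3cl1 and Cx3cr1. The rule found 63 of 25239 genes, of which 40 were ligands (25 CC, 13 CXC, 2 C and CX3C), 19 were classical receptors (11 CC, 8 CXC, XC and CX3C) and 4 were atypical receptors. Chemokines are small secreted proteins that guide leukocytes along a gradient, and their receptors are G protein-coupled receptors on the responding cells. They are grouped by the spacing of their first cysteines into the CC, CXC, C and CX3C families, and atypical receptors bind chemokines and remove or transport them without classical signaling. In the brain, the neuronal chemokine Cx3cl1 signals to its receptor Cx3cr1 on microglia, and in the liver, chemokines made by Kupffer cells, hepatocytes and endothelium recruit lymphocytes and monocytes.

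The mice were male wild-type C57BL6/J animals aged 24 months, and the control mice shared genotype, sex and age with the heat stress mice. The heat stress mice were kept at 40 ± 0.5 °C and 60 ± 5% relative humidity for 3 h a day over 15 days. Messenger RNA of homogenized pieces of frozen brain and liver was sequenced in 3 control and 3 heat stress libraries per tissue, 12 in all. The labels do not state whether brain and liver libraries of the same number came from the same mouse, and a brain piece is not assigned to a region. Each library held between 10466198 and 15609040 counts, of which 6202 to 16998 fell on the 63 genes, and 39 to 45 of them had at least 1 count in a given library. Hepatocyte markers summed to between 78136 and 125717 normalized counts in liver, and neuron markers to between 8560 and 12426 in brain, so both tissues carried the transcripts their labels call for. Liver control replicate 1 and liver heat stress replicate 2 stood apart from the other liver libraries, since a list of 10 skeletal muscle markers summed to 409 and 2341 normalized counts in them, with 0 of the 10 absent, and to 1.21 to 7.41 in the other 4. They are called the muscle-bearing libraries.

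Chromosomes 9 and 11 carry 14 of these genes each. Ccl5, Ccl9, Ccl6, Ccl3 and Ccl4 lie within 138.906 kb of chromosome 11, from 83525778 to 83664683 of GRCm38, the build called mm10. The interferon-inducible ligands Cxcl9, Cxcl10 and Cxcl11, which share the receptor Cxcr3 on activated T cells and natural killer (NK) cells, lie within 44.139 kb of chromosome 5, all on the minus strand, with Cxcl9 from 92321347 to 92328079, Cxcl10 from 92346638 to 92348889 and Cxcl11 from 92359544 to 92365485. Of these 3 ligands, Cxcl9 and Cxcl10 had a promoter window in the reference used and Cxcl11 had none. Cxcl9 and Cxcl10 were also the CXC ligands with the lowest unadjusted p-values in liver. The 300 bases around their transcription start sites are shown, 250 before and 50 after, 5′ to 3′ on the strand of the gene. The sequences are from RefSeq on GRCm38.p6, at chr5:92328030-92328329 for Cxcl9 and chr5:92348840-92349139 for Cxcl10. Capitals mark matches to a core of sites for the transcription factor NF-kB, GGG and CC with any 5 bases between them, and to a core of interferon response elements, GAAA and GAAA with any 2 bases between them. Both were searched on both strands, and matches of the NF-kB core on opposite strands can overlap.
Cxcl9: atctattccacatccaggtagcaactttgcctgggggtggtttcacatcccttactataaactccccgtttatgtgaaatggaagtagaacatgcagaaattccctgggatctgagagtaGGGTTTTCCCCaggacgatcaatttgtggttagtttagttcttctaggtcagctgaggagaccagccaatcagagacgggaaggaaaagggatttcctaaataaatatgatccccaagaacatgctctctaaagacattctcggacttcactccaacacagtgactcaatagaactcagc
Cxcl10: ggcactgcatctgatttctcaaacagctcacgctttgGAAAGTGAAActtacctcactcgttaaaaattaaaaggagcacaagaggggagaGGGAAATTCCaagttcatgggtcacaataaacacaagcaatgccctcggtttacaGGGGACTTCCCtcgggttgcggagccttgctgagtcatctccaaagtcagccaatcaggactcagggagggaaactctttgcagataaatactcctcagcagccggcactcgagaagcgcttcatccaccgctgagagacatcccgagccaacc
In the Cxcl9 window the NF-kB core was met in 1 stretch, where forward and reverse matches overlap. In the Cxcl10 window it was met in 2 stretches, and the interferon core GAAAGTGAAA was met 213 bases before the start site. The NF-kB core is common, as 50.8% of 32841 windows of the same length held it, and the interferon core was in 3.44% of them. Of the 63 genes, 47 had a window, and 27 of these (57.4%) held the NF-kB core and 3 (6.38%), those of Ccl19, Cxcl10 and Cxcl14, the interferon core. A match is a run of letters and not a measured binding site.

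Levels are given as raw counts, or as normalized counts, which are CPM (counts relative to library size) scaled by the trimmed mean of M values (TMM) within a tissue. Heat stress was compared with control within tissues, over all genes with enough counts, using the quasi-likelihood F test of edgeR, whose adjusted p follows Benjamini and Hochberg and is given as FDR. The effect is given as log2FC, the log2 of heat stress over control, ± its standard error (SE). Genes were called when the FDR was under 0.05 and log2FC lay outside -1 to 1. With 3 libraries against 3, an exact permutation test of a single value cannot go below 0.1. The low-count filter can pass a gene through its high group alone, so counts over the tested members describe them and are not evidence of a direction.

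In liver, the members with the lowest p-values were ligands of receptors on T cells and NK cells. Ccl5, a chemokine released by activated T and NK cells, was 4.86-fold higher after heat stress in the fit, and Cxcl9 and Cxcl10, ligands of Cxcr3, were higher in all 3 heat stress libraries, whereas Cxcl11 was lower in all 3. edgeR called none of the 25 tested members (0% of all 12296 tested genes were called). At an unadjusted p under 0.05 there were 3 members (5.84% of all tested genes), all higher after heat stress, namely Ccl5, Cxcl9 and Cxcl10, where the share of genes so much higher was 2.97%. None was lower, where the share was 2.87%. Without both muscle-bearing libraries 1 was higher, Ccl5, and 2 were lower, among them Cxcl11, where 1274 of all 12239 genes passed either way. Without control replicate 1 alone 1 was lower (1614 of 12519 genes passed either way), and without control replicate 3 there were 6 higher (693 of 12627). DESeq2 called 1 of the 17 members to which it gave an adjusted p, Ccl5, against 0.373% of all genes. The 3 heat stress libraries did not overlap the 3 controls for Ccl5, Cxcl9, Cxcl10 and Cx3cr1, which were higher (5.38% of all genes), and for Cxcl11, which was lower (5.73%). The log2FC was above 0 for 19 of 25 members (51.8% of all genes), with a median of 0.29 over the members and 0.01 over all genes.

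Ccl5 had counts of 8, 14 and 18 in the control livers and of 88, 63 and 62 in the heat stress livers. The lowest heat stress library lay above the highest control. In normalized counts the level was 1.11 ± 0.581 (SD, n = 3) in control and 5.28 ± 1.13 (SD, n = 3) after heat stress. The log2FC was 2.28 ± 0.40 (SE), with an FDR of 0.141 from edgeR and of 0.00131 from DESeq2. With 1 library left out the log2FC ran from 1.89 to 2.68. The FDR of edgeR reached 0.949 without heat stress replicate 3. Without both muscle-bearing libraries edgeR called Ccl5, at a log2FC of 2.01 and an FDR of 0.0134, among 61 called of all 12239 genes. In the column names, 3 liver libraries carry the suffix 2nd, which the sources used here do not explain. The heat stress to control ratio was 4.0 among the libraries without it, with 1 heat stress library, and 5.01 among those with it, with 1 control library.

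Ccl3 and Ccl4, the macrophage inflammatory proteins, are neighbors of Ccl5 on chromosome 11, and both were too low in liver to be tested. Ccl4 summed to 6 counts in the control libraries and to 34 after heat stress, with no overlap between the groups. Scaled by depth the ratio was 5.28, with an exact 95% interval of 2.19 to 15.4 that covers counting error only, and without the filter edgeR gave a log2FC of 2.31 ± 0.71 (SE) with an FDR of 0.685. Ccl3 had counts of 0, 2 and 1 in control and of 5, 5 and 2 after heat stress, a ratio of 3.73 (1.01 to 20.6), and here the groups touched at 2.

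Cxcl9 had counts of 137, 137 and 212 in control liver and of 970, 367 and 289 after heat stress. Replicate 1 of the heat stress group was far above the others, and the remaining heat stress libraries still lay above every control. Among the liver libraries it also had the highest summed markers of T and NK cells, B and plasma cells, Kupffer cells, and monocytes and dendritic cells, and their part in its Cxcl9 count was not tested. The level was 13.3 ± 5.75 (SD, n = 3) normalized counts in control and 40.2 ± 27.8 (SD, n = 3) after heat stress. The log2FC was 1.61 ± 0.48 (SE), with an FDR of 0.604 from edgeR and of 0.0581 from DESeq2. Without heat stress replicate 1 it was 0.86. Without both muscle-bearing libraries it was 1.61 ± 0.88 (SE), with an FDR of 0.671 in edgeR. The unadjusted p was then no longer under 0.05, nor was it without control replicate 1 alone or control replicate 2 alone. The ratio was 1.79 among libraries without the suffix 2nd and 4.25 among those with it, each again with 1 library in an arm.

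Cxcl10 had counts of 33, 24 and 28 in control and of 74, 50 and 34 after heat stress. The groups did not overlap but came close, at 2.61 normalized counts for the highest control and 2.68 for the lowest heat stress library. Its log2FC was 0.81 ± 0.33 (SE) with an FDR of 0.846 in edgeR, and 0.45 without heat stress replicate 1. Without both muscle-bearing libraries it was 0.84 ± 0.41 (SE), and the unadjusted p was no longer under 0.05. Nor was it with DESeq2, the replicate number as a block, all 12 libraries in 1 fit or the suffix 2nd as a term. The same held without control replicate 1, control replicate 2 or heat stress replicate 1, each left out alone. Cxcl11 went the other way, with counts of 44, 47 and 33 in control and of 31, 37 and 19 after heat stress. All heat stress libraries lay below all controls after scaling, at a log2FC of -0.60 ± 0.31 (SE) with an FDR of 0.897 in edgeR. Exons of Cxcl10 overlap the gene Art3 on the other strand and those of Cxcl11 overlap Gm2673, and since the use of strand in counting is not given in the sources used here, their counts may include reads of those genes. The shared receptor Cxcr3 was too low to be tested, with 18 counts in control and 19 after heat stress.

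**Figure D1:**
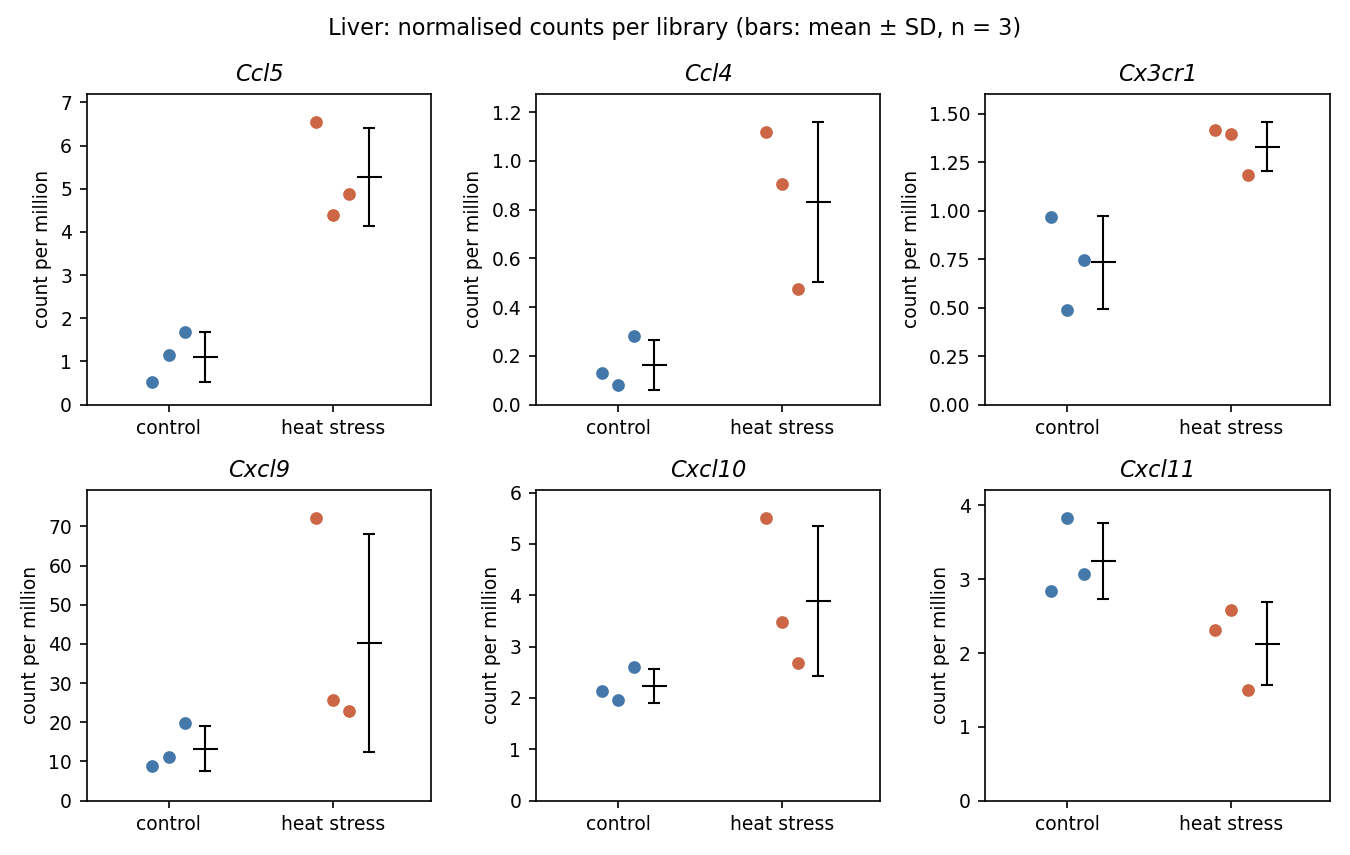
Normalized counts (CPM, TMM) of 6 genes in liver, 1 point per library, with control in blue, heat stress in orange, and the mean ± SD of 3 libraries beside them. Ccl5, Ccl4, Cx3cr1, Cxcl9 and Cxcl10 were higher in all 3 heat stress libraries and Cxcl11 was lower; 1 library sets most of the height of Cxcl9.

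The summed markers of T and NK cells were higher in the 3 heat stress livers. Of the T and NK cell list, 18 genes were in the table and 11 were tested, of which edgeR called 0 and DESeq2 called 0 of the 2 to which it gave an adjusted p. All 11 had a log2FC above 0 (51.8% of all genes), with a median of 0.84, and 4 (Cd3e, Cd7, Cd8a and Nkg7) were higher at an unadjusted p under 0.05 (2.97%). The other 7 were too low to be tested, and 6 of them had a higher summed count after heat stress, all but the NK cell receptor Klrb1c at 4, 11 and 8 in control and 8, 6 and 6 after heat stress. The granzymes of cytotoxic granules had control counts of 2, 3 and 3 for Gzma, 1, 5 and 6 for Gzmb and 0, 3 and 1 for Gzmk, against 27, 9 and 7, 30, 8 and 11, and 11, 4 and 3 after heat stress. Cd8b1 had 1, 3 and 2 against 22, 8 and 3, Prf1 had 0, 1 and 0 against 2, 1 and 2, and Ncr1 had 0, 1 and 0 against 6, 2 and 0. Summed over the list, the level lay between 6.00 and 13.1 normalized counts in control and between 16.7 and 28.4 after heat stress. Cd8a, the CD8 coreceptor of cytotoxic T cells, had counts of 3, 7 and 2 in control and of 28, 15 and 15 after heat stress. None of the T cell receptor complex genes Cd3d, Cd3e and Cd3g was at 0 in any liver library. The B and plasma cell list had 0 of 8 tested genes at that p, and its sums overlapped, at 11.4 to 26.8 in control and 18.7 to 36.6 after heat stress. The Kupffer cell and macrophage list also overlapped between the groups, at 205 to 326 in control and 266 to 445 after heat stress, where 11 of its 12 tested genes were above 0 and 1, Marco, had an unadjusted p under 0.05, being higher. The monocyte and dendritic cell list overlapped as well, at 11.5 to 19.6 in control and 15.4 to 26.4 after heat stress. Of its 6 tested genes 3 were above 0, and 1, Itgax, was higher at that p, with counts of 6, 5 and 5 in control and of 20, 20 and 16 after heat stress. The highest sum of each of these 4 lists was that of heat stress replicate 1. More cells of a type and more RNA per cell cannot be told apart in bulk tissue. The endothelial list summed to 169 to 201 in control and 208 to 214 after heat stress, but 0 of its 11 tested genes had an unadjusted p under 0.05. The part of any of these cells in the values of Ccl5, Ccl4 and Cxcl9 was not tested.

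**Figure D2:**
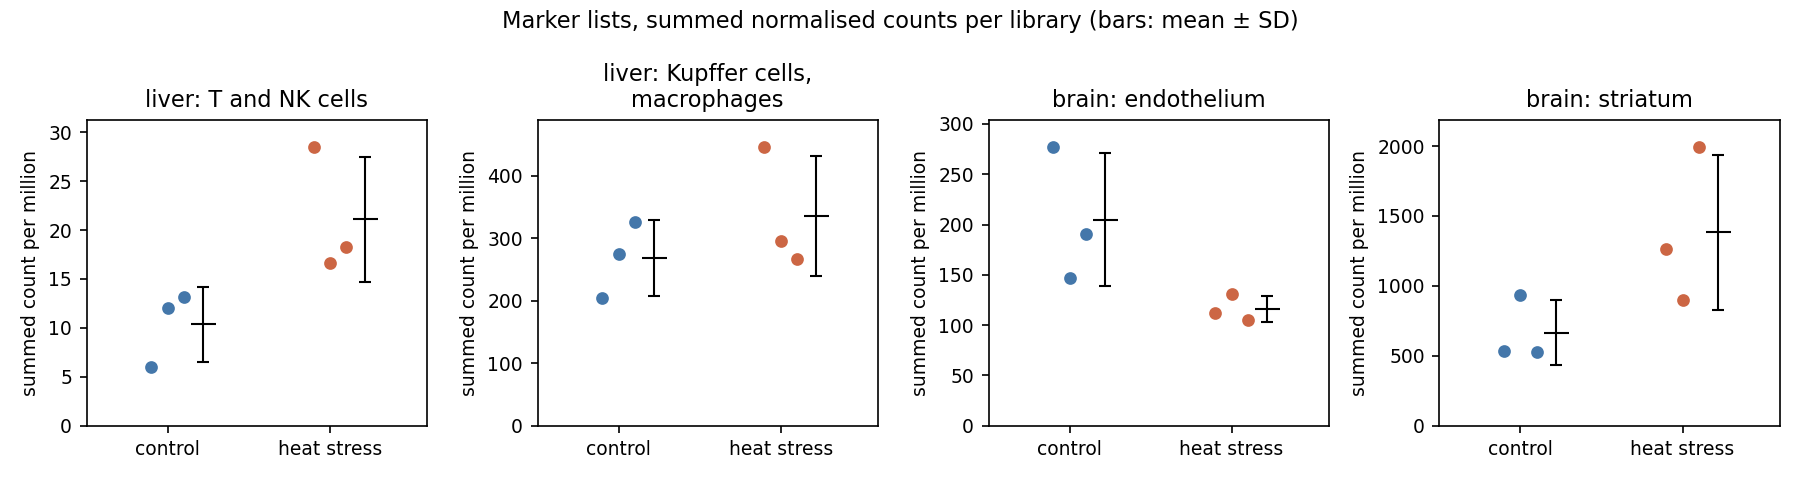
Summed normalized counts (CPM) of marker lists per library, with control in blue, heat stress in orange, and the mean ± SD of 3 libraries beside them. In liver the T and NK cell sum separated the groups (at most 13.1 in control, at least 16.7 after heat stress) and the Kupffer cell sum did not; in brain the endothelial sum was lower in all 3 heat stress libraries, and the striatal sum was higher on average with overlapping groups.

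The other liver CXC ligands did not separate the groups. Cxcl12, the homing signal for Cxcr4-bearing cells, was with Ccl9 among the most abundant chemokines of the liver per kilobase of exon and had 306 ± 25.2 (SD, n = 3) normalized counts in control and 308 ± 37.6 (SD, n = 3) after heat stress, a log2FC of 0.01 ± 0.18 (SE). Its receptor Cxcr4 had counts of 9, 13 and 17 in control and of 36, 22 and 23 after heat stress, and a log2FC of 0.93 ± 0.43 (SE) with an FDR of 0.863 in edgeR, with overlap after scaling. Cxcl1, a neutrophil attractant that binds Cxcr2, had counts of 71, 247 and 170 in control and of 352, 203 and 234 after heat stress. The low control value of Cxcl1 came from the muscle-bearing library, and without it the log2FC of 0.54 ± 0.45 (SE) was 0.11. The B cell attractant Cxcl13 reached 76 counts in heat stress replicate 1, against 6 to 20 in the other liver libraries, and its log2FC of 1.24 had a standard error of 0.84. Of the remaining Cxcr2 ligands, Cxcl3 had 0 counts in all 12 libraries, which allows up to 2.87e-05% of the counts of the shallowest library, and Cxcl2 had 3 counts in control liver against 10 after heat stress.

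The fractalkine receptor Cx3cr1, found on monocytes and some cytotoxic lymphocytes in liver, had counts of 15, 6 and 8 in control and of 19, 20 and 15 after heat stress. In normalized counts it was 0.734 ± 0.240 (SD, n = 3) in control and 1.33 ± 0.128 (SD, n = 3) after heat stress, without overlap, at a log2FC of 0.83 ± 0.39 (SE) with an FDR of 0.875 in edgeR. Among the monocyte-attracting ligands, Ccl2 had counts of 5, 8 and 19 in control and of 27, 14 and 14 after heat stress, with overlap, and its receptor Ccr2 had a log2FC of 0.02 ± 0.50 (SE). Ccl9, a ligand of Ccr1 and the most abundant CC ligand of liver, was at 113 ± 31.4 (SD, n = 3) normalized counts in control and at 110.5 ± 36.7 (SD, n = 3) after heat stress. The 3 atypical receptors tested in liver, Ackr2, Ackr3 and Ackr4, had log2FC values of 0.15 to 0.49.

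Of the 63 genes, 38 were not tested in liver, of which 9 were at 0 in all liver libraries, 12 had at most 3 counts in each, and 17 had more in at least 1. The untested gene with the most counts was the atypical receptor Ackr1, with 28 in control and 35 after heat stress. Ccl8, a monocyte attractant, had 1 count in control and 11 after heat stress, a ratio of 10.2 with an exact 95% interval of 1.49 to 441, and no count in heat stress replicate 3. Its relative Ccl7 had 3 and 11 counts, a ratio of 3.42, with 9 of the 11 in heat stress replicate 1. The eosinophil attractant Ccl11 had 2 and 12 counts, a ratio of 5.59 (1.24 to 51.4), of which 11 were in the muscle-bearing heat stress library, and the 2 counts of control were in the muscle-bearing control library. The interval of the ratio included 1 for Ccl7 (0.902 to 19.1), Cxcl2 (0.799 to 17.6), Xcl1 (0.793 to 3.34), Ccl28 (0.500 to 2.89), Xcr1 (0.467 to 2.57) and Cxcr5 (0.401 to 1.57), and for every untested member other than Ccl3, Ccl4, Ccl8 and Ccl11. Ccl12 had 1 count in control and 4 after heat stress, and Ccl19 had 2 and 0.

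In brain, the neuronal ligand Cx3cl1 was 1.68-fold lower after heat stress in the fit and Cxcl12 was 1.63-fold lower, while 5 CC ligands were higher, among them Ccl28 at 1.83-fold, Ccl9 at 2.50-fold and Ccl12 at 2.98-fold. edgeR called none of the 18 tested members (0% of 14806 genes), and DESeq2 called 0 of the 8 members to which it gave an adjusted p (0.218% of all genes). At an unadjusted p under 0.05 there were 7 members (20.1% of all genes), of which 5 were higher (Ccl12, Ccl17, Ccl25, Ccl28 and Ccl9, where the share was 10.0%) and 2 were lower (Cx3cl1 and Cxcl12, also 10.0%). The number higher was 2 without control replicate 1, 3 without heat stress replicate 1 and 1 without heat stress replicate 2, and 1 was lower without heat stress replicate 1. Over all genes, 1655 of 15005, 2104 of 15067 and 1665 of 15029 passed that p in these fits, in the same order and either way. The groups did not overlap for Ccl17, Ccl25 and Ccl28, which were higher (12.9% of all genes), and for Cx3cl1, which was lower (12%). The log2FC was above 0 for 10 of 18 members (49.7% of all genes), with a median of 0.06. Among these were all 7 CC ligands that were tested, from 0.03 for Ccl27a to 1.58 for Ccl12.

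Ccl28, a mucosal chemokine that binds Ccr10 and Ccr3, had counts of 55, 40 and 39 in control brain and of 54, 86 and 68 after heat stress. In normalized counts it was 3.47 ± 0.307 (SD, n = 3) in control and 6.37 ± 1.36 (SD, n = 3) after heat stress, with every heat stress library above every control. The log2FC was 0.87 ± 0.23 (SE), with an FDR of 0.170 from edgeR. Its receptor Ccr10 had 6 counts in control and 8 after heat stress, and Ccr3 had 0 and 3. Ccl25, the thymic and gut ligand of Ccr9, was at 5.27 ± 1.09 (SD, n = 3) normalized counts in control and at 7.74 ± 0.477 (SD, n = 3) after heat stress, without overlap, at a log2FC of 0.56 ± 0.21 (SE) with an FDR of 0.205 in edgeR. Exons of Ccl25 overlap Elavl1 on the other strand. Ccr9 had 13 counts in control and 15 after heat stress. Its exons overlap Gm17200 on the same strand and Slc6a20a and AC165425.1 on the other, so its counts may include reads of those genes.

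Ccl17, which attracts cells that carry Ccr4, had counts of 11, 12 and 8 in control brain and of 19, 16 and 13 after heat stress. Every heat stress library exceeded every control, at a log2FC of 0.85 ± 0.36 (SE) with an FDR of 0.232 in edgeR, while Ccr4 itself had 0 counts in all brain libraries. The unadjusted p of Ccl17 was not under 0.05 with DESeq2, without the filter, with the replicate number as a block or with all 12 libraries in 1 fit. Ccl9 had counts of 11, 24 and 18 in control and of 21, 58 and 37 after heat stress, with a small overlap and a log2FC of 1.32 ± 0.45 (SE) with an FDR of 0.182 in edgeR. Ccl6, its neighbor on chromosome 11, had counts of 16, 35 and 32 in control and of 33, 61 and 35 after heat stress, also with overlap, at a log2FC of 0.83 ± 0.40 (SE) with an FDR of 0.277 in edgeR.

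Ccl12, a mouse ligand of the monocyte receptor Ccr2, had counts of 3, 12 and 12 in control brain and of 25, 37 and 9 after heat stress. Replicate 3 of the heat stress group lay among the controls. The log2FC was 1.58 ± 0.61 (SE) with an FDR of 0.210 in edgeR. Ccr2 was too low to pass the filter, with counts of 5, 6 and 1 in control and of 14, 18 and 8 after heat stress, and the groups did not overlap. By depth the ratio for Ccr2 was 3.94, with an exact 95% interval of 2.03 to 8.25 for counting error, and without the filter edgeR gave an FDR of 0.156. The unadjusted p of Ccr2 was then under 0.05, as it was with DESeq2 and with all 12 libraries in 1 fit. The other ligands of Ccr2 were near the floor, with 7 counts in control and 10 after heat stress for Ccl2 and 9 in each group for Ccl7. Markers of monocytes and dendritic cells, a list of 10 genes of which 3 were tested, summed to between 16.4 and 20.6 normalized counts in control brain and between 14.8 and 18.1 after heat stress.

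Ccr1, a receptor for Ccl9, Ccl6 and Ccl3, had 9 counts in control brain and 28 after heat stress, and 20 of the 28 were in heat stress replicate 2. The same library had the highest count of Ccl9, Ccl6 and Ccl12 among the brain libraries and 8 of the 10 counts of the lymphoid homing ligand Ccl19, which had 0 in control. It also had the highest sum of the 10 neutrophil markers, 38.0 normalized counts, against 6.79 to 13.6 in the 3 controls and 9.44 to 10.7 in the other heat stress libraries. Of the neutrophil markers 3 were tested, all with a log2FC above 0 (49.7% of all brain genes) and a median of 1.00, and 1, S100a8, was higher at an unadjusted p under 0.05 (10.0%), at a log2FC of 1.47 ± 0.62 (SE) with an FDR of 0.236 in edgeR. The list of 8 meningeal and fibroblast markers was likewise highest in that library, at 423 against 167 to 294 in the other 5 brain libraries, with 0 of the 8 at an unadjusted p under 0.05. The part of neutrophils, meninges or fibroblasts in these values was not tested. Ccl3 had counts of 6, 1 and 5 in control brain and of 9, 7 and 9 after heat stress, without overlap, a ratio of 2.46 (exact 95% interval 1.19 to 5.38). Ccl4 had 4 counts in control and 11 after heat stress, with an interval of 0.964 to 14.0 around a ratio of 3.25. Ccl5 had 11 counts in control brain and 12 after heat stress.

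Cx3cl1, the membrane-bound fractalkine of neurons, had counts of 10404, 4631 and 5342 in control brain and of 3001, 2940 and 4046 after heat stress. All heat stress libraries lay below all controls after scaling, at 263 to 382 normalized counts against 404 to 713, and control replicate 1 was far above the other 2 controls. The log2FC was -0.75 ± 0.24 (SE), with an FDR of 0.172 from edgeR and of 0.0320 from DESeq2, and it did not reach the fold change of a call. Without control replicate 1 it was -0.44. Its receptor Cx3cr1, which marks microglia, had a log2FC of -0.16 ± 0.15 (SE) and 56.4 ± 9.89 (SD, n = 3) normalized counts in control against 50.5 ± 6.64 (SD, n = 3) after heat stress, with overlap.

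Cxcl12 had counts of 1297, 546 and 715 in control brain and of 353, 545 and 403 after heat stress, and a log2FC of -0.70 ± 0.23 (SE) with an FDR of 0.175 in edgeR and 0.0568 in DESeq2. Control replicate 1 was again the highest library, and the groups overlapped at 47.6 and 48.8 normalized counts. Without that control the log2FC was -0.41. Of its receptors, Cxcr4 had a log2FC of -0.09 ± 0.40 (SE) and the scavenging receptor Ackr3 also one of -0.09 ± 0.20 (SE). Cxcl14, a ligand abundant in brain, had 110.9 ± 17.9 (SD, n = 3) normalized counts in control and 122.9 ± 17.3 (SD, n = 3) after heat stress, with overlap.

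**Figure D3:**
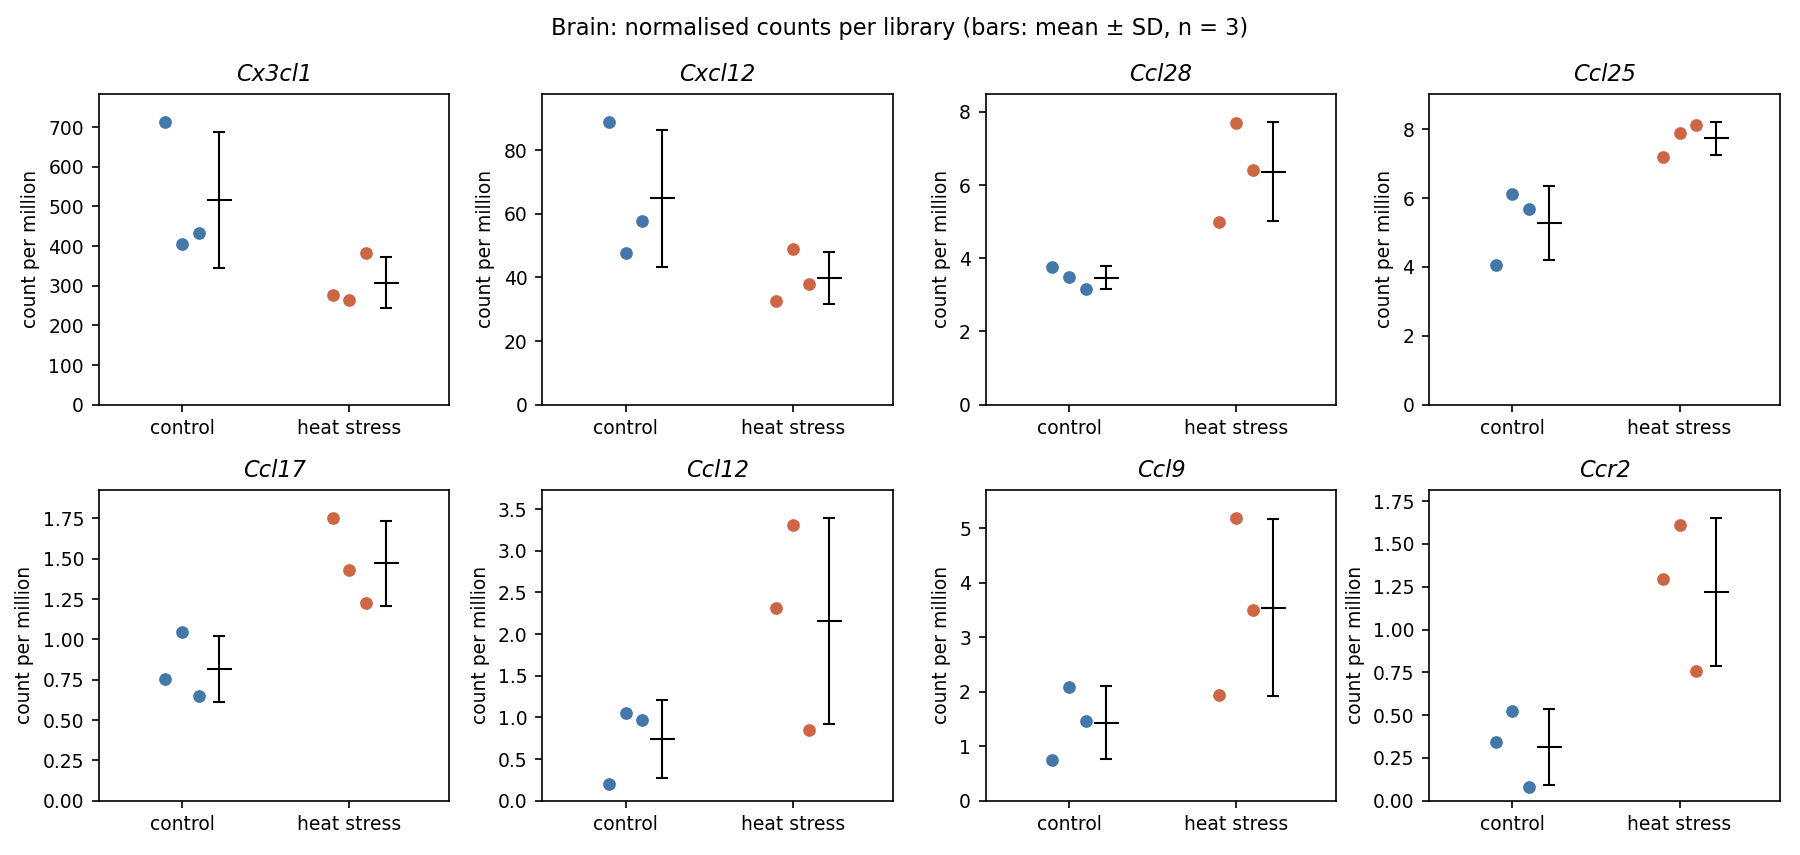
Normalized counts (CPM, TMM) of 8 genes in brain, 1 point per library, with control in blue, heat stress in orange, and the mean ± SD of 3 libraries beside them. Cx3cl1 was lower and Ccl28, Ccl25, Ccl17 and Ccr2 were higher in all 3 heat stress libraries; 1 control library is high for both Cx3cl1 and Cxcl12.

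Marker lists of cell types also differed between the brain libraries. Of all tested brain genes, 20.1% had an unadjusted p under 0.05, with 10.0% in each direction. DESeq2 called 0.218% of all brain genes to which it gave an adjusted p. Of the endothelial list, 8 genes were tested, and all 8 had a log2FC below 0 and an unadjusted p under 0.05, with a median of -1.04. DESeq2 called 4 of the 8, Kdr, Pecam1, Tie1 and Vwf. At most 1 of the 11 genes of the list was at 0 in a library, and the list summed to between 147 and 277 normalized counts in control and between 105 and 131 after heat stress, and the highest sum was in control replicate 1, the library highest for Cx3cl1 and Cxcl12. The neuron list was also highest there, at 12426 normalized counts against 8560 and 10461 in the other controls and 8766 to 9626 after heat stress, and 1 of its 10 tested genes had an unadjusted p under 0.05, being lower. The choroid plexus list summed to between 1261 and 2511 in control and between 264 and 1140 after heat stress. Of its 9 tested genes 5 were lower at an unadjusted p under 0.05. DESeq2 called Aqp1 and Kl among the 6 to which it gave an adjusted p. The striatal list, which marks a brain region, was higher for 9 of its 10 tested genes at that p, at 524 to 933 in control and 899 to 1990 after heat stress, and DESeq2 called 4 of them, Adora2a, Drd1, Ppp1r1b and Tac1. In these lists edgeR called 0 genes. The microglial list overlapped, at 401 to 528 and 469 to 541, and of its 10 tested genes Aif1, Gpr34 and P2ry12 were higher and Csf1r was lower at an unadjusted p under 0.05. None of the striatal or choroid plexus markers was at 0 in any brain library. The part of endothelium, neurons, choroid plexus or sampled region in the chemokine values was not tested.

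**Figure D4:**
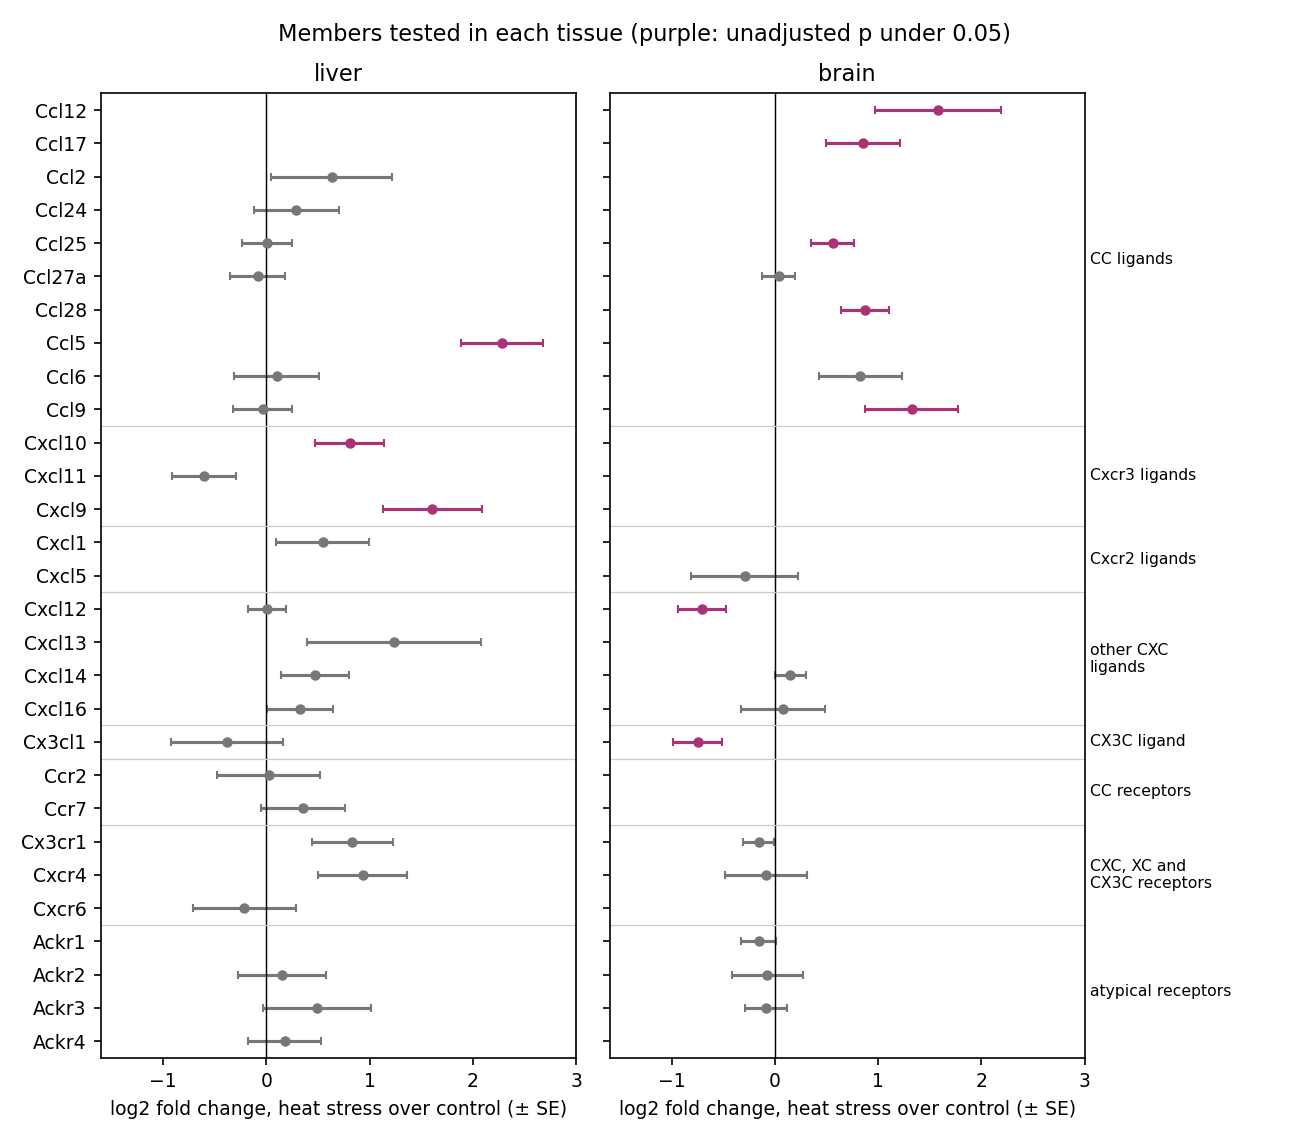
Log2FC of heat stress over control with its standard error (edgeR, horizontal axis) for each reported member tested in liver (left) or brain (right), grouped by role, with an unadjusted p under 0.05 in purple. In liver the purple points are Ccl5, Cxcl9 and Cxcl10; in brain they are 5 CC ligands above 0, and Cxcl12 and Cx3cl1 below 0; listed genes without a point were too low to be tested in that tissue.

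Of the 63 genes, 45 were not tested in brain. Of these, 11 were at 0 in all brain libraries, 17 had at most 3 counts in each, and 17 had more in at least 1. The Cxcr3 ligands, which separated the groups in liver, were near the floor in brain, with 3 counts in control and 2 after heat stress for Cxcl9, 17 and 26 for Cxcl10, and 3 and 1 for Cxcl11. The interval of the ratio for Cxcl10 was 0.945 to 3.55. The 3 atypical receptors tested in brain had log2FC values of -0.16 (Ackr1) to -0.07 (Ackr2). Ackr1 shares exonic bases on the same strand with Cadm3, so its count may include reads of that gene. The genes Ccl21a, Ccl21b, Ccl21c and Ccl21d, which are near-identical copies, were at 0 in all 12 libraries, and so was Ccl27b, the copy of Ccl27a. Ccl11 had 0 counts in control brain and 3 in heat stress replicate 2.

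Whether the effect of heat stress differed between liver and brain was tested as an interaction in a fit of all 4 groups, for 30 members among 15824 genes. The methods give 3 mice a group, so tissues of the same mice enter this fit, but the labels do not state which libraries share a mouse and the fit treats all 12 as independent. edgeR called 0 members (0.00632% of all genes) and DESeq2 called 0 of the 10 to which it gave an adjusted p (0.290%). At an unadjusted p under 0.05 there were 4 members (9.64% of all genes). The effect was higher in liver than in brain for Ccl5 and Cx3cr1 (3.73%) and lower for Ccl9 and Ccr2 (5.91%). With the replicate number as a block, Ccl5 and Ccr2 no longer passed that p, and 1146 of all 15824 genes did. The counts of members rested on single libraries, since leaving out each of the 12 in turn gave 0 to 3 members higher and 0 to 3 lower. There were 0 higher without liver control replicate 2, and 0 lower without liver control replicate 3, brain control replicates 1 or 3, or brain heat stress replicate 2. Over all genes, 988 of 16109 (without brain control replicate 1) to 3053 of 16120 (without liver control replicate 1) passed that p. The difference in log2FC was 1.93 ± 0.85 (SE) for Ccl5, 0.96 ± 0.36 (SE) for Cx3cr1, -1.37 ± 0.53 (SE) for Ccl9 and -1.90 ± 0.82 (SE) for Ccr2, each with an FDR of 0.516 from edgeR. With 1 library left out, these values ran from 1.51 to 2.87 for Ccl5 (highest without brain heat stress replicate 2), from 0.71 to 1.32 for Cx3cr1, from -1.70 to -0.95 for Ccl9 and from -2.35 to -1.30 for Ccr2 (nearest 0 without liver control replicate 3). For Cxcl9 the difference was 1.90, but brain held so few counts that its standard error was 2.36.

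Liver and brain were also compared with each other. In control mice, compared on a TMM scale common to the 6 control libraries, 22 members passed the filter among 15213 genes, and edgeR called 19 (64.5% of all genes), of which 12 were higher in liver (27.8%) and 7 higher in brain (36.7%). The same 19 had an unadjusted p under 0.05 (79.6% of all genes, with 36.2% higher in liver and 43.4% higher in brain) and did not overlap between the tissues (37.1% and 44.4%), and 15 of 22 members were above 0 (46.2%). Members could pass this filter through 1 tissue alone, and DESeq2, with other filtering, called 31 of 47 (57.8%). Levels between genes are compared per kilobase of exon, as normalized counts per kilobase. Control brain was led by Cx3cl1 at 89.7 ± 29.5 (SD, n = 3), followed by Cxcl14 at 41.4 ± 6.37, Ccl27a at 26.8 ± 5.24, Ackr1 at 17.1 ± 3.68 and Cx3cr1 at 8.53 ± 1.43. The ranges of neighbors among these 5 did not overlap. Control liver was led by Cxcl12 at 55.4 ± 5.42 (SD, n = 3) and Ccl9 at 54.5 ± 12.3, whose ranges overlapped, followed by Cxcl1 at 10.4 ± 5.81, Cxcl9 at 6.43 ± 2.57 and Ccl27a at 5.86 ± 1.74, whose ranges also overlapped. Exons of Ackr1 overlap Cadm3 on the same strand. Those of Ccl27a overlap Il11ra1 and those of Cx3cr1 overlap Gm33858 on the other strand. The counts of Ackr1, Ccl27a and Cx3cr1 may therefore include reads of those genes.

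Between control tissues, Cx3cl1 was lower in liver by a log2FC of -7.69 ± 0.48 (SE) with an FDR of 4.63e-07 in edgeR and Cx3cr1 by -5.10 ± 0.30 (SE) with an FDR of 3.28e-07 in edgeR. Without liver control replicate 1 the value for Cx3cl1 was -8.38. That library had the most Cx3cl1 counts of the liver, 28, and the highest sum of neuron markers there, 39.7 normalized counts against 13.6 to 20.6 in the other 5 liver libraries, with none of the 10 markers at 0. The part of neuronal transcripts in the value was not tested. Ccl9 was higher in liver by a log2FC of 7.42 ± 0.38 (SE) with an FDR of 1.72e-07 in edgeR, at 1211 to 1514 counts in control liver and 11 to 24 in control brain. Cxcl12 was higher in liver by 3.35 ± 0.28 (SE) with an FDR of 3.22e-06 in edgeR, while its receptor Cxcr4 had a log2FC of 0.30 ± 0.47 (SE) with an FDR of 0.573 in edgeR. Cxcl9 had 137, 137 and 212 counts in control liver and 0, 3 and 0 in control brain. Ccr2, the monocyte receptor, was higher in liver by 3.98 ± 0.64 (SE) with an FDR of 0.000291 in edgeR.

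**Figure D5:**
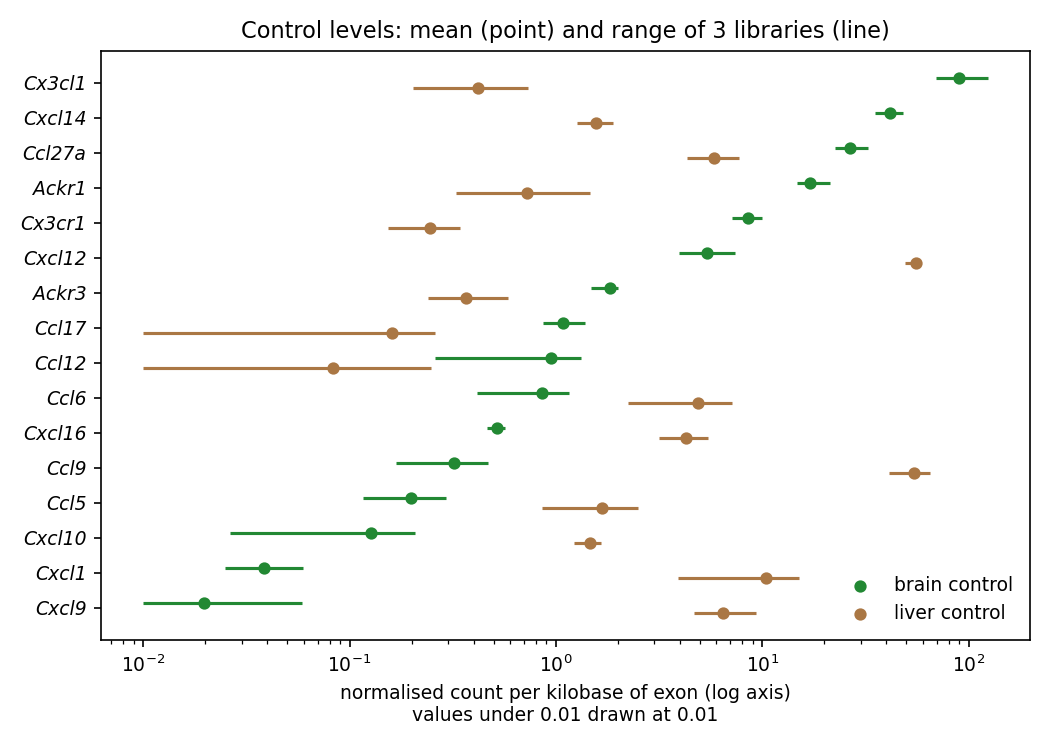
Normalized counts per kilobase of exon (log axis, scale common to both tissues) of the reported members among the 10 highest in either control tissue, as the mean (point) and range (line) of 3 libraries in brain (green) and liver (brown). Cx3cl1, Cxcl14, Ccl27a, Ackr1 and Cx3cr1 lead in brain; Cxcl12, Ccl9, Cxcl1 and Cxcl9 lead in liver.

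Scaled within liver, Cxcl9 ranked 4 among the members in control, at 4.40 ± 1.91 (SD, n = 3) normalized counts per kilobase, and 3 after heat stress, at 13.3 ± 9.21. Cxcl1, which it passed, had an overlapping range after heat stress, from 7.55 to 14.0 against 7.56 to 23.9 for Cxcl9, so the order of the pair is not resolved. Ccl5 ranked 8 in control, at 1.16 ± 0.605 per kilobase, and 5 after heat stress, at 5.50 ± 1.18. In brain the 5 leading members kept their order after heat stress, with Cx3cl1 at 78.2 ± 16.5 and Cxcl14 at 67.3 ± 9.48 per kilobase, whose ranges then overlapped.

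The wider pathway was followed in 3 lists of genes outside the rule. Of the factors and cytokines that induce chemokines, 28 were tested in liver, and 2, Irf7 and Tnfrsf1b, were higher at an unadjusted p under 0.05 (2.97% of all liver genes) with 0 lower. Irf7, a transcription factor of the interferon response, had counts of 357, 260 and 198 in control liver and of 759, 572 and 531 after heat stress, without overlap, at a log2FC of 1.14 ± 0.19 (SE) with an FDR of 0.132 in edgeR. Ifng, which encodes the interferon that induces Cxcl9, had 3 counts in 1 control library and 2 in 1 heat stress library. In brain 27 of that list were tested, and 4 (Fos, Il17ra, Il1r1 and Stat3) were lower at an unadjusted p under 0.05 (10.0% of all brain genes) with 0 higher (also 10.0%). Stat3 had a log2FC of -0.42 ± 0.10 (SE) with an FDR of 0.170 in edgeR.

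Of the signaling genes downstream of the receptors, 29 were tested in liver, with Rac2 and Pik3r5 higher and Gnai3 lower at an unadjusted p under 0.05 (5.84% of all liver genes either way). Rac2, a small GTPase of leukocyte migration, had a log2FC of 0.78 ± 0.24 (SE) with an FDR of 0.604 in edgeR. In brain 27 were tested, with Rgs2 higher and Plcb3, Prex1 and Rgs16 lower at that p. With 4 of 27 members the share was below the 20.1% of all brain genes. Of 14 further ligands and modulators tested in each tissue, 5 were higher in liver at that p (Cd74, Cmtm3, Mif, Mmp2 and Pf4, where the share of all genes was 2.97%) and 0 in brain. Mif, a cytokine that binds Cd74 and Cxcr4, had a log2FC of 0.65 ± 0.22 (SE) with an FDR of 0.743 in edgeR and Pf4, a platelet chemokine named outside the rule, one of 1.11 ± 0.41 (SE) with an FDR of 0.799 in edgeR. Of these 3 lists edgeR called 0 genes in either tissue. DESeq2 called 1 in liver, Irf7 (0.373% of all genes), and 0 in brain (0.218%).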

How the data were processed

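Polyadenylated RNA of 12 brain and liver samples was sequenced by the authors as stranded paired-end libraries. The authors deposited raw read counts per gene symbol, not normalized. The submitters' processing notes name FastQC 0.11.9, Trimmomatic 0.39, HISAT2 2.2.1 on mm10 and featureCounts from Subread 2.0.1; a second methods paragraph names Tophat2 and HTSeq instead, and the annotation release and strand setting are not given in the sources used here. Deposited tables of the authors' DESeq2 comparisons (log2 fold changes and p-values) were not used. Columns left unmapped numbered 0.

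Counts were analysed in R 4.3.3 with edgeR 4.0.16 (filterByExpr with a minimum count of 10 and a total of 15, TMM, robust quasi-likelihood test, Benjamini-Hochberg adjustment over all tested genes) and, as an alternative, DESeq2 1.42.0. A standard error is the size of log2FC divided by the root of its F statistic. Totals of 10466198 to 15609040 counts set the precision, and p-values measure the spread between these libraries. Members not tested are given by counts with exact conditional 95% intervals and a floor of 3 counts. Genes with full values were those with an unadjusted p under 0.05, those without overlap between groups, those the study names, the 5 highest per kilobase in each tissue, and receptors of such ligands. Other members were chosen after their values were seen. The members and lists were chosen with earlier results of these data known. Positions and exon lengths came from GENCODE M21, which held 61 of the 63 symbols as a single gene. The scripts were tested on simulated data. No 2 libraries of a group agreed within sampling noise. Alternatives were other scalings, filters and fits, and each library left out. The values of 1 member are not reported here, and counts over all members include it.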

Additional observations from a re-analysis of the deposited data

How the results depend on the processing

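In liver, the called members numbered 1 with DESeq2 and 1 without both muscle-bearing libraries, and it was Ccl5 each time (log2FC 2.26 and 2.01, adjusted p 0.00131 and 0.0134). Over all genes, 42 of 11259 were called with DESeq2 and 61 of 12239 without both libraries. Without both, 1 member was higher and 2 were lower at an unadjusted p under 0.05, where 1274 of 12239 genes passed either way. Liver Cxcl12 was near 0 and changed sign with DESeq2 size factors (-0.010), DESeq2 (-0.013), no filter (-0.0068), upper quartile scaling (-0.0010), all 12 libraries in 1 fit (-0.015) and the suffix 2nd as a term (-0.026). Without the low-count filter, 8 brain members were higher at an unadjusted p under 0.05, where 3193 of 20021 genes passed either way. Between control tissues, 21 members were then called higher in liver and 21 were higher at that p, as with DESeq2 (21 and 21). Over all genes, 11015 of 20002 were called there without the filter and 10635 of 18414 with DESeq2, and 13532 and 13108 passed that p, either way. The cause of these shifts was not tested.

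With each library left out in turn, no member was called for heat stress by edgeR in liver, brain or the interaction, against 0 to 24, 0 and 0 to 4 of all genes. At an unadjusted p under 0.05, liver had 2 to 6 members higher and 0 to 1 lower, brain 1 to 7 higher and 1 to 2 lower, and the interaction 0 to 3 higher and 0 to 3 lower. Over all genes, 414 of 12655 to 1614 of 12519 passed that p in liver and 1655 of 15005 to 4027 of 14979 in brain. For the interaction these were 988 of 16109 to 3053 of 16120. Between control tissues, 12 to 15 members were called higher in liver and 7 to 8 lower, where 9882 to 10285 of all genes were called either way. Signs turned within these ranges of log2FC: liver Cxcl12 -0.070 to 0.11, Ccl9 -0.33 to 0.18 and Ccl27a -0.26 to 0.22, and brain Ackr1 -0.26 to 0.036, Ackr3 -0.22 to 0.023, Ccl27a -0.076 to 0.20 and Cxcr4 -0.33 to 0.36. The other members run in these fits kept their direction, and they did not include liver Cxcr4, Ccr2 and Cxcl13 or brain Ccl6.

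The replicate numbers did not pair the libraries within tissues, as deviations of same-numbered libraries correlated at -0.58, -0.51 and 0.11 in liver and -0.26, 0.18 and -0.17 in brain. With the replicate block, edgeR called 0 members in liver (smallest adjusted p 0.237), 0 in brain (0.132), and 12 and 7 between control tissues. Over all genes it called 1 of 12296, 0 of 14806 and 9765 of 15213. At an unadjusted p under 0.05, liver Cxcl10 and brain Ccl17 no longer passed and brain Ccl6 did, where 321 liver and 2852 brain genes passed. The interaction had 1 member higher (Cx3cr1) and 1 lower (Ccl9) at that p, where 1146 of 15824 genes passed. Ccl5 (log2FC 1.99) and Ccr2 (-1.91) no longer passed it there. Between brain and liver, same-numbered control libraries correlated at 0.20, 0.18 and 0.082, all above the differently numbered ones at -0.21 to 0.052. After heat stress same-numbered libraries correlated at 0.025, -0.090 and 0.018, within the -0.12 to 0.11 of the differently numbered ones. Whether same-numbered brain and liver libraries share a mouse was not tested. At 3 libraries a group and counts near the floor, the untested members are described by intervals that cover counting error only, not the spread between libraries.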
